A study of Mus musculus with 3 samples.

Results

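The distal 2 Mb of the mouse autosomes are the stretches that end at the tip of each chromosome lying farthest from its centromere. A nucleosome position was counted as distal when its centre lay within 2 Mb of the last centre listed for that chromosome on any of the 3 days. This gave 207700 of the 11039278 positions listed on chromosomes 1 to 19, or 1.88%, on 1.58% of the covered length. Over days 0, 1 and 2 the distal stretches held 72385, 56462 and 78853 positions, and the rest of the autosomes held 3617192, 2911088 and 4303298. The rule uses coordinates only, so the density of positions in these regions was free to vary.

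The cells were Ter119-negative erythroblasts, the nucleated precursors of red cells, taken from the livers of 6 mouse fetuses and grown in IMDM with fetal bovine serum, bovine serum albumin, insulin and 2 U/ml erythropoietin, the kidney hormone that supports erythroid growth and survival. They were purified on days 0, 1 and 2 of culture, and the labels give no strain, genotype or fetal age. Chromatin was cut with micrococcal nuclease, which digests the DNA between nucleosomes, and the DNA of single nucleosomes was sequenced. There was 1 library per day, so no value below has a replicate check and no difference between days was tested, and day cannot be told apart from the depth or digestion of its library.

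Mouse autosomes are telocentric, with the centromere at one tip and the whole gene-bearing arm running to the other. The distal tip carries the telomere, an array of short repeats bound by the shelterin proteins, and next to it a subtelomeric zone rich in repeats and recently duplicated genes. In yeast and in human cells, genes close to telomeres can be silenced, and mouse subtelomeres carry marks of heterochromatin. In terminal erythropoiesis the nucleus condenses and is at last expelled. Repeats at the tip itself are poorly mappable, so the last listed position marks the end of what could be mapped, not of the chromosome.

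The distal regions held both gene-dense and nearly gene-free DNA, and the position lists separated them. Promoters of the long genes (100 kb or more) with the highest and lowest day 2 over day 0 ratio of position numbers are shown because they come from both kinds of region. They are RefSeq sequences of GRCm38.p6, the coordinates of mm10, from 250 bases before to 50 after the start of the transcript, and capitals mark the bases within 5 bp of a centre listed on day 2. The first gene of each pair had the more extreme ratio among the distal long genes with an entry in the promoter table, and the gene second to Fgf14 by ratio, Dok6, is described by its values only.
Fgf14 (chr14:124192497-124192796, minus strand): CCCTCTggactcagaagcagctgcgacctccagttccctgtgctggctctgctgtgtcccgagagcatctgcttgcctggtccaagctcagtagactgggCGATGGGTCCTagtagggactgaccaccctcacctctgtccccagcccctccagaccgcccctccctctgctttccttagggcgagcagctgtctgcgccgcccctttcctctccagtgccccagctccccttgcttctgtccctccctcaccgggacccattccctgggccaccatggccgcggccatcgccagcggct
Itgbl1 (chr14:123659890-123660189, plus strand): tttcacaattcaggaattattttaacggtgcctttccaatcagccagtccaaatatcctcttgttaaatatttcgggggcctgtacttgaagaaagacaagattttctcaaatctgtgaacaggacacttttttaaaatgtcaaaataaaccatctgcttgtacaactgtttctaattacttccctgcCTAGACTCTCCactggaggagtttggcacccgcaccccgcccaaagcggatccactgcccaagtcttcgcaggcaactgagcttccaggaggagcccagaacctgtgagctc
Prdm16 (chr4:154636824-154637123, minus strand): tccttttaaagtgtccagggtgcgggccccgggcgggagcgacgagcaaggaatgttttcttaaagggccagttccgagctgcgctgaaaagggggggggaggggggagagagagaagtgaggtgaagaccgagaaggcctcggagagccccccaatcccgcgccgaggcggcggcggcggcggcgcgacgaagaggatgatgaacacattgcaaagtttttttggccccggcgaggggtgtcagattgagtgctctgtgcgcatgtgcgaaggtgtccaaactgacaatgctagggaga
Ano1 (chr7:144738524-144738823, minus strand): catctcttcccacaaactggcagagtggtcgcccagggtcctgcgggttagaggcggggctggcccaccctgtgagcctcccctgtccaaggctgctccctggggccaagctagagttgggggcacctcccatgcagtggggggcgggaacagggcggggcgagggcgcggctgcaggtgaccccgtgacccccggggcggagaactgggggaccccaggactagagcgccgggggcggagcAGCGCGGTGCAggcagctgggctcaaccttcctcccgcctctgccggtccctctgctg

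The Fgf14 promoter window held no centre on day 0 and 2 centres on each of days 1 and 2, at -155 and -25 and then at -250 and -145 bp from the start. The Itgbl1 window held a centre on day 2 only, at -57 bp, and it was the least GC-rich of the 4 at 45.3%. The Prdm16 window held 1, 2 and 0 centres on days 0, 1 and 2, and 61% of its bases were G or C. The Ano1 window, 71.7% G or C, held 2, 2 and 1. Its centres lay at -218 and -60 bp on day 0, at -223 and -78 bp on day 1 and at -3 bp on day 2. Both Ano1 centres of day 1 thus lay within 20 bp of a day 0 centre. The number of listed centres was not the same on all days in any of the 4 windows, each of which has room for at most a few nucleosomes.

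On each day the distal regions together were more densely covered with positions than the rest of their own chromosomes. The density ratio, distal over rest, for days 0, 1 and 2 was 1.24 (1.23 to 1.25), 1.18 (1.17 to 1.19) and 1.13 (1.12 to 1.14). In brackets are exact 95% intervals, which cover counting error only. The spread between chromosomes was far wider, with an SD over the 19 autosomes of 0.723, 0.702 and 0.392, and the ratio exceeded 1 on 11, 9 and 10 autosomes. The median autosome lay at 1.13, 0.947 and 1.12, so on day 1 the pooled excess came from a minority of chromosome ends. That SD is a spread within a library, not between cultures.

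Several ends with many genes were dense. The distal end of chromosome 4, with 58 protein-coding genes in the RefSeq table, held 7594, 6298 and 6437 positions on days 0, 1 and 2, and its density ratio was 2.44, 2.64 and 1.85. Chromosome 15, with 52 genes, had ratios of 2.26, 2.04 and 1.63. Chromosome 2, with 60, had 2.08, 1.86 and 1.48, and chromosome 11, with 68, had 1.80, 2.08 and 1.66. The end of chromosome 7, with 29 genes, had 2.37, 1.98 and 1.62, although its 14.5 genes per Mb differ little from the 14.2 of the rest of that chromosome. In absolute numbers chromosome 11 had the most positions of the 19 distal ends on each day, with 8511, 8257 and 8027.

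At the other extreme stood the end of chromosome 17, which holds 3 genes in its last 2 Mb. It had 625, 526 and 1833 positions, and its density was 0.174, 0.167 and 0.441 times that of the rest of the chromosome. The ends of chromosomes 14, 18 and 3, with 6, 6 and 7 genes, had day 0 ratios of 0.352, 0.398 and 0.414. Their day 2 ratios were 0.601, 0.740 and 0.722. Chromosome 10 did not follow gene number, since its last 2 Mb hold 84 genes, the most of any end, and its ratio was 0.778, 0.924 and 0.931.

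**Figure D1:**
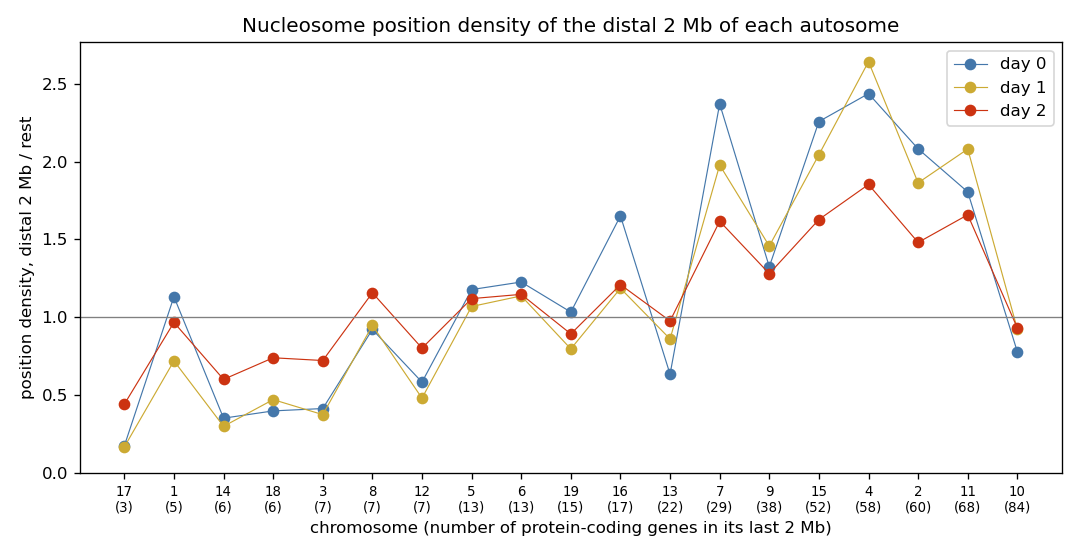
Density of nucleosome positions in the distal 2 Mb over that in the rest of the same chromosome, 1 point per day, with chromosomes ordered by their number of distal protein-coding genes. Ratios run from 0.174 on chromosome 17 to 2.44 on chromosome 4 on day 0, and on day 2 all lie between 0.441 and 1.85.

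Across the 19 ends the density ratio went with gene number, with Spearman correlations of 0.71, 0.81 and 0.74 on days 0, 1 and 2. The 1173 other windows of 2 Mb, counted back from the distal end of each autosome, gave 0.74, 0.76 and 0.74. Ends and windows of 1 library share its depth and base composition, so these values are descriptions. Distal ends with 30 or more genes had median ratios of 1.94, 1.95 and 1.55 (6 ends), beside 1.91, 1.97 and 1.57 in 201 other windows of that gene number. Distal ends with 5 to 14 genes had 0.752, 0.6001 and 0.884 (8 ends), beside 0.746, 0.645 and 0.828 in 435 others. Distal ends with 15 to 29 genes had 1.34, 1.02 and 1.09 (4 ends), beside 1.31, 1.27 and 1.23 in 294 others, and their median change on day 1 over day 0 was 0.803, beside 0.996. Set against 100 kb bins of the same chromosome with a like number of surrounding genes, the pooled distal ratio was 1.03, 0.963 and 1.00, so most of the pooled excess was not seen at matched gene number. Single ends still differed widely, with an SD over autosomes of 0.463, 0.419 and 0.262. On day 0 this matched ratio ran from 0.296 on chromosome 10 to 2.21 on chromosome 7. For the bins nearest the end, the stretch searched for genes ran past the last listed position. Their gene number thus came from a shorter stretch, and their match is less exact.

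The chromosome ends became more alike on day 2. Over the 19 ends the density ratio had a coefficient of variation of 0.604, 0.620 and 0.351 on days 0, 1 and 2. The SD of the log2 ratio was 1.07, 1.06 and 0.544 among distal windows, and 1.33, 1.44 and 0.723 among the other windows. Both sets were narrowest on day 2.

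For changes between days, each 2 Mb window was counted as higher or lower when its density ratio differed by 1.5 times or more, which is a rule of size and not a test. On day 2 compared with day 0, 5 of 19 distal ends were higher, where 29.7% of all 1192 windows were, and 0 were lower, where 1.09% of all were. The 5 were chromosome 17 (2.54 times its day 0 ratio), chromosome 18 (1.86), chromosome 3 (1.75), chromosome 14 (1.71) and chromosome 13 (1.54). The lowest changes were at chromosomes 7 (0.682), 2 (0.711) and 15 (0.721), just inside the limit. Over all ends the pooled change was 0.910 (0.901 to 0.920), with 8 ends above 1 and 11 below.

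The pooled change was alike in the 2 steps, 0.955 (0.944 to 0.965) for day 1 over day 0 and 0.954 (0.943 to 0.964) for day 2 over day 1. Single ends did not move alike in them. For day 1 over day 0, 7 ends were above 1 and 12 below, with a median of 0.908. For day 2 over day 1, 13 were above 1 and 6 below, with a median of 1.05. Against day 1, 5 of 19 distal ends were higher by 1.5 times or more on day 2, where 34.7% of all windows were, and 0 were lower, where 1.68% were. They were chromosomes 17 (2.64), 14 (2.01), 3 (1.93), 12 (1.67) and 18 (1.57). Chromosome 13 moved by 1.36 on day 1 over day 0 and by 1.13 on day 2 over day 1. On day 1 compared with day 0, 0 ends were higher, where 1.34% of all windows were, and 1 was lower, where 8.89% were. That end was chromosome 1, with 3054, 1474 and 3257 positions on days 0, 1 and 2 and a ratio of 1.13, 0.720 and 0.967. The Spearman correlation of the change with gene number over the 19 ends was 0.33 for day 1 over day 0 and -0.89 for day 2 over day 1, beside 0.35 and -0.76 in the other windows.

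**Figure D2:**
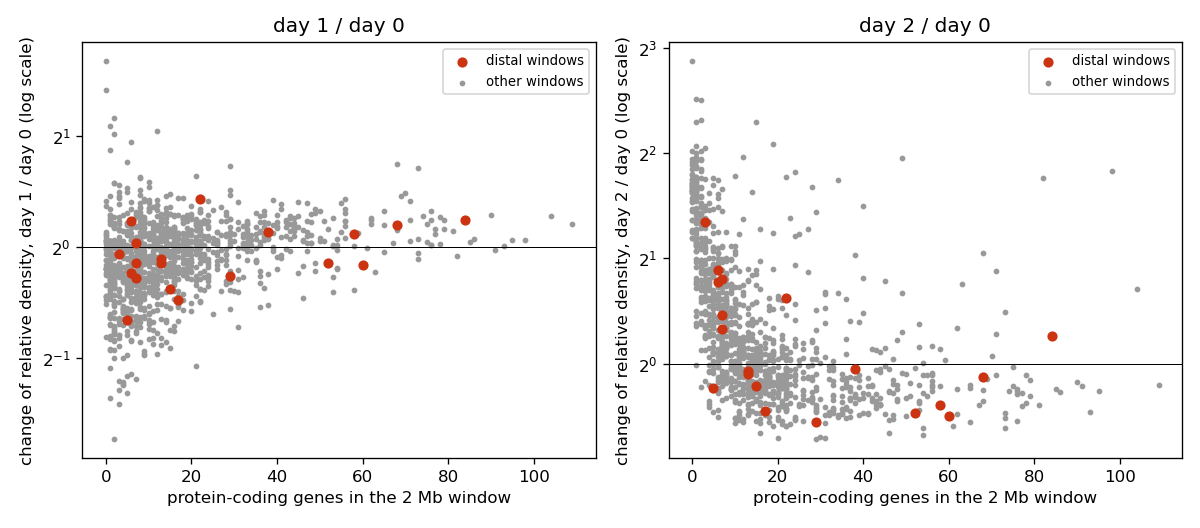
Change of the density ratio of 2 Mb windows on day 1 (left) and day 2 (right) over day 0, on a log2-spaced axis, against the number of protein-coding genes in the window, with the 19 distal windows in red and the 1173 others in grey. On day 2 over day 0 the distal end of chromosome 17, with 3 genes, lies at 2.54 and that of chromosome 7, with 29 genes, at 0.682, inside the cloud of other windows.

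Density also varied within the last 2 Mb. In the outermost 300 kb the density was a median of 0.709, 1.00 and 0.934 times that of the inner 1.7 Mb on days 0, 1 and 2, and it was below it on 12, 9 and 11 of 19 chromosomes. In the other 2 Mb windows the same quantity had medians of 0.971, 0.901 and 0.983. It was below 1 in 52.8%, 54.9% and 51.4% of these windows. Against the rest of the chromosome, the outermost 300 kb had median densities of 0.657, 0.695 and 0.870, and the inner part 1.19, 1.01 and 1.15. Pooled over the ends, there were 12.3 genes per Mb in the outermost 300 kb, 13.8 in the inner part and 8.47 in the rest. Genes that reach into both parts were counted in both. Single ends differed far more, with 1 gene in the outermost and 51 in the inner part on chromosome 15, and 2 and 1 on chromosome 17. The part of gene number in this contrast was not tested. The outermost stretch was sparser than the inner part on 12 of 19 ends on day 0, beside 52.8% of the other windows. On chromosome 17 it was 3.51 times as dense as the inner part on day 0.

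**Figure D3:**
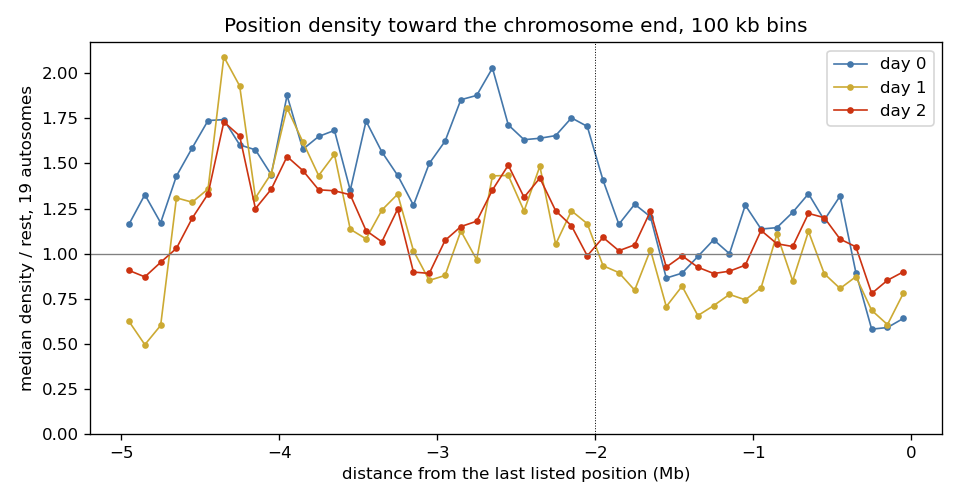
Median over 19 autosomes of the position density in 100 kb bins, relative to the rest of the chromosome, against the distance from the last listed position, with the dotted line at 2 Mb. The outermost bin lies at 0.641 on day 0, and the 3 outermost bins of day 0 are the lowest of its last 2 Mb.

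In 100 kb bins, the changes covered most of some chromosome ends and only a short stretch of others. Of 377 distal bins with at least 10 positions on each day, 75 were higher by 2 times or more on day 2 than on day 0, where 21.8% of all 22554 bins were, and 9 were lower, where 0.630% were. The higher bins lay on 8 chromosomes, with 17 on chromosome 17, 13 on chromosome 18 and 10 each on chromosomes 10 and 12. The lower bins were 3 on chromosome 7, 3 on chromosome 4 and 1 each on chromosomes 2, 15 and 19. Neighbouring bins share genes and are not independent, so the 9 bins amount to 5 places. On day 1 compared with day 0, 31 distal bins were lower by 2 times, where 13.6% of all were, and 2 were higher, where 1.24% were. Against day 1, 64 bins were higher on day 2, where 35.6% of all were, and 0 were lower, where 0.00% were.

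**Figure D4:**
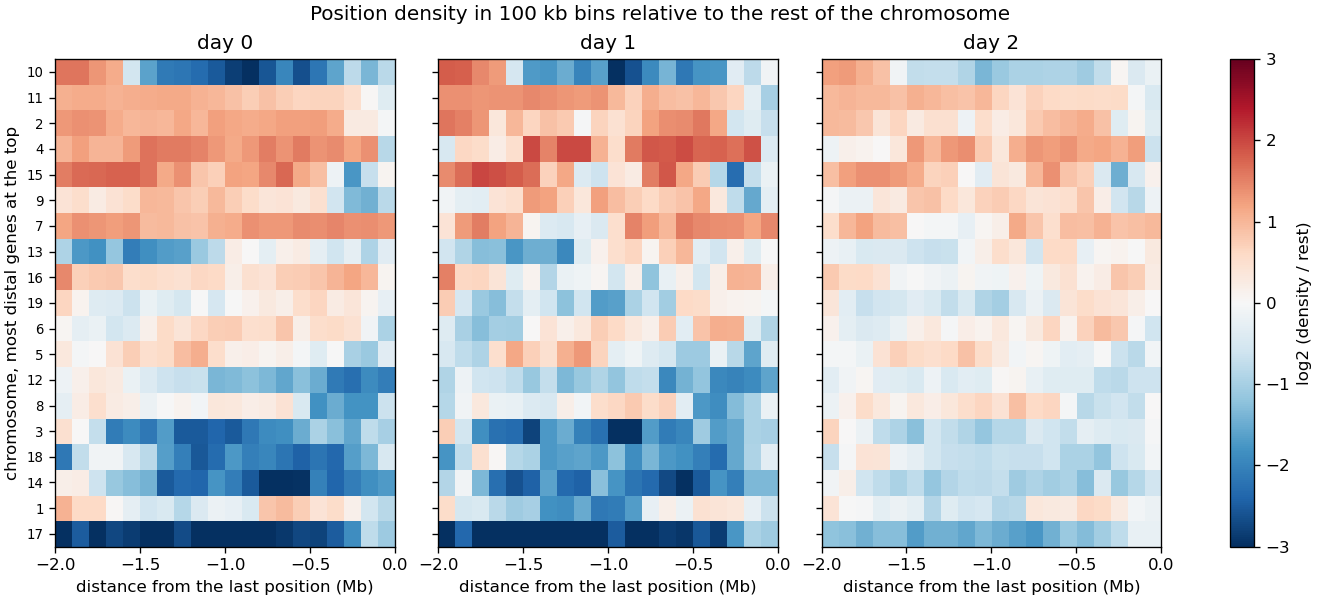
Position density of 100 kb bins in the distal 2 Mb, as log2 of the ratio to the rest of the chromosome and with colours limited to 3 on either side of 0, for 19 chromosomes (most distal genes at the top) on 3 days. Chromosome 10 has a sharp border between a dense inner stretch and a sparse one, and the dark blue of chromosome 17 on days 0 and 1 is paler on day 2.

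The border on chromosome 10 followed a gene cluster. The stretch from 128989914 to 130497379 holds 65 genes, most of them Olfr genes, which encode the odorant receptors of the nose, and some Vmn genes, which encode pheromone receptors. It had 613, 667 and 1685 positions on days 0, 1 and 2, or 0.407, 0.442 and 1.12 per kb. The next 334 kb inward, from Rps26, a ribosomal protein gene, to the integrin gene Itga7, hold 19 genes and had 1327, 1313 and 1409 positions, or 3.98, 3.93 and 4.22 per kb. Divided by the ratio of the list totals, the day 2 over day 0 ratio was 2.31 (2.11 to 2.54) in the receptor block and 0.894 (0.829 to 0.964) in its neighbour. The receptor block was thus the sparser of the pair on each day, and least so on day 2. Receptor genes are recent duplicates, and reads from near-identical copies can be assigned to the wrong place or lost.

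The 58 distal Olfr genes, all on chromosome 10, showed the same at their ends. Within 500 bp of either gene end they held 36, 43 and 135 positions in all on days 0, 1 and 2, and 38, 29 and 5 of them held none. Of the 20050 genes outside the distal regions, 9.38%, 10.9% and 3.58% held none, so empty gene ends were rarest on day 2 there too. The position sums are not scaled, and the autosome total of day 2 was 1.19 times that of day 0. The promoters of the chromosome 10 end had a median GC share of 34.7% and a median ratio of observed to expected CpG of 0.139. On the other distal ends, chromosome 18 left out, the median GC share of promoters lay between 48.5% on chromosome 17 and 66.5% on chromosome 14. Within the chromosome 10 end, 52 promoters inside the receptor block had a median GC share of 32.7%, and 25 inside the block from Rps26 to Itga7 had 57.7%. The values of chromosomes 17 and 14 rest on 4 and 6 starts, and promoters do not give the base composition of a whole end. The part of base composition in these densities was not tested.

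A stretch of low positions on days 1 and 2 lay on chromosome 7. Shank2, which encodes a scaffold protein of excitatory synapses, spans 448 kb of that end and had 1416, 486 and 755 positions. Its scaled ratio was 0.427 (0.384 to 0.473) for day 1 over day 0 and 0.449 (0.410 to 0.491) for day 2 over day 0. The 6 bins from 0.9 to 1.5 Mb from the end held 293 to 348 positions each on day 0, 89 to 176 on day 1 and 148 to 199 on day 2. The 9 bins outward of them held 397 to 445, 249 to 368 and 249 to 388. These bin numbers are not scaled, and the autosome totals of days 1 and 2 were 0.804 and 1.19 times that of day 0. The 6 bins summed to 1900, 690 and 1048 positions on days 0, 1 and 2, and the 9 outward bins to 3750, 2878 and 2973. The fall on day 1 was thus much larger in the 6 bins than outward of them.

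Chromosome 4 had a similar stretch at Prdm16, which encodes a zinc finger regulator of brown fat and of blood stem cells. The gene had 1088, 474 and 574 positions, with scaled ratios of 0.542 (0.485 to 0.604) on day 1 and 0.444 (0.401 to 0.492) on day 2, both over day 0. Part of the gene lies inward of the distal 2 Mb. The 5 bins from 1.5 to 2 Mb from the end, which hold most of Prdm16, summed to 1691, 753 and 933 positions. The 8 bins from 0.1 to 0.9 Mb summed to 3259, 3296 and 3206. The next bin inward of these 8, in neither sum, held 340, 172 and 221. The Hoxc cluster on chromosome 15, 9 homeobox genes that pattern the body axis, had 368, 191 and 281 positions and a ratio of 0.643 (0.548 to 0.753). These places were chosen after their values were seen.

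At the ends of chromosomes 14 and 18, which hold 6 genes each, 4 long genes were higher on day 2. Fgf14, which encodes an intracellular regulator of sodium channels, spans 703 kb of the end of chromosome 14 and had 153, 129 and 555 positions, with a scaled day 2 over day 0 ratio of 3.05 (2.55 to 3.68). Its neighbour Itgbl1 had 92, 84 and 281 positions and a ratio of 2.57 (2.03 to 3.29). Nalcn, a sodium leak channel gene of the same end, had 108, 73 and 284 and a ratio of 2.21 (1.77 to 2.79). On chromosome 18, Dok6, an adaptor of receptor tyrosine kinases, had 137, 159 and 485 and a ratio of 2.98 (2.46 to 3.63). In all 4, days 0 and 1 were both low and day 2 stood above them. Long genes of ends with few genes did not all do so. Pcca, a gene of chromosome 14 that extends inward past the distal part, had 558, 227 and 581 positions. Its ratio was 0.877 (0.779 to 0.986). Rttn, on chromosome 18, lay between Pcca and the 4 genes, with a ratio of 1.42 (1.15 to 1.75). Plxna2, a semaphorin receptor gene at the end of chromosome 1, which holds 5 genes, had 533, 229 and 439 positions, with ratios of 0.534 (0.456 to 0.625) for day 1 over day 0 and 0.693 (0.610 to 0.788) for day 2 over day 0.

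Over the 33 distal genes of 100 kb or more, 6 were higher by 1.5 times or more on day 2 than on day 0, where 17.7% of the 2285 such genes of the autosomes were, and 4 were lower, where 6.83% were. The 4 were Prdm16, Shank2, Ano1, a chloride channel gene, and Prkcz, a kinase gene. On day 1 compared with day 0, 1 was higher, where 3.94% of all were, and 9 were lower, where 26.7% were. Against day 1, 9 were higher on day 2, where 33.0% of all were, and 2 were lower, where 3.72% were. The 33 genes are few, and neighbours among them share a chromosome end.

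**Figure D5:**
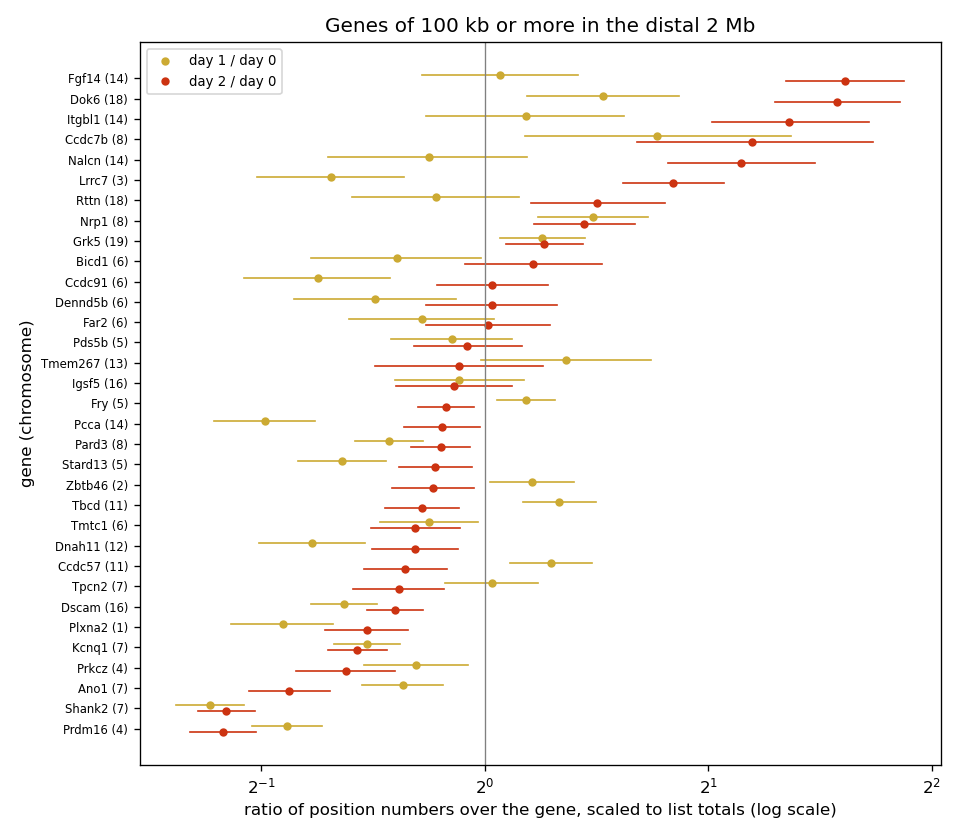
Ratios of position numbers over the whole gene on day 1 (yellow) and day 2 (red), each over day 0 and divided by the ratio of the list totals, on a log2-spaced axis, for the 33 distal genes of 100 kb or more, with exact 95% intervals for counting error. The day 2 ratios run from 0.444 at Prdm16 to 3.05 at Fgf14.

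At gene ends, the median change of distal genes was close to that of genes elsewhere. The relative occupancy of a gene, the sum of its summit values within 500 bp of both ends, taken per bp and relative to all autosomal sequence of that library, could be followed at 378 of the 510 distal genes, those with at least 3 positions on each day. A gene that passes this minimum had to be covered on all days, so the 378 do not stand for the 510. On day 1 compared with day 0, 56 were higher by 2 times or more, where 16.2% of all 13996 measured genes were, and 14 were lower, which is 3.70% (2.04 to 6.14, counting error only), where 1.31% of all were. The median log2 change was 0.44, beside 0.45 in the rest. Against day 1, 4 were higher on day 2 (0.593% of all) and 73 lower (19.7% of all), with medians of -0.53 and -0.56. On day 2 compared with day 0, 11 were higher (4.24% of all) and 31 lower (6.54% of all), with medians of -0.11 and -0.12. The balance of these counts turns with the window: over whole genes, 437 of which could be measured, 22 were higher (5.37% of all) and 13 lower (2.37% of all) on day 2 compared with day 0, and 15 were higher (3.45% of all) and 18 lower (5.68% of all) on day 1 compared with day 0. At summit values of 10 or more, where 57 genes were left, 12 were higher (13.8% of all) and 0 lower (1.38% of all) on day 2 compared with day 0.

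The 14 genes lower on day 1 than on day 0 were 3.70% of the 378. They lay on 6 chromosomes, with 5 on chromosome 2, 4 on chromosome 7, 2 on chromosome 16 and 1 each on chromosomes 6, 9 and 15. The 3 with the largest decrease were neighbours on chromosome 2. Chrna4, a nicotinic acetylcholine receptor subunit gene, had 10, 3 and 7 end positions on days 0, 1 and 2 and a log2 change of -2.11. Birc7, an inhibitor of apoptosis, had 10, 3 and 5 and a change of -1.62, and the collagen gene Col20a1 had 10, 3 and 5 and a change of -1.51. The 3 genes were picked by this decrease, so their low day 1 numbers follow from the choice. Each had on day 1 the minimum of 3 positions.

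On day 2 compared with day 0, the largest log2 increases were at Ppp1r1a (1.73), an inhibitor of protein phosphatase, Gmeb2 (1.504), a DNA-binding regulator, Paip1 (1.17), a partner of the poly(A)-binding protein, Ggact (1.12) and the integrin gene Itgb8 (1.07). Ppp1r1a had 3, 7 and 9 end positions on days 0, 1 and 2 but 26, 21 and 26 over the whole gene. The largest decreases were at Mrgprd (-2.31), a receptor of pain-sensing neurons, Tnfrsf22 (-2.08), Mmel1 (-1.60), Shank2 (-1.53) and Hoxc11 (-1.53). Mrgprd, the last named gene of chromosome 7, had 9, 5 and 3 end positions and 32, 16 and 22 over the gene. With so few positions these are the extremes of 378 small counts, and Shank2 is the only gene among them with over 1000 positions on a day.

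Single steps gave other extremes. On day 1 compared with day 0, Ppp1r1a (2.46), Paip1 (2.14) and the G protein subunit gene Gnb1 (2.05) had the largest increases. On day 2 compared with day 1, the integrin gene Itgb2l (1.73), the nuclear import gene Ipo8 (1.25) and Sectm1b (1.07) had the largest increases. Topaz1 (-2.29), a gene of male germ cells, Gabrd (-2.24), a GABA receptor subunit gene, and Bhlhe23 (-2.07) had the largest decreases.

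The distal regions hold 510 of 20560 autosomal protein-coding genes. Of 22 autosomal erythroid genes on a list of 24, 1 was distal. This was Nfe2, the erythroid subunit of a globin gene activator, with 46, 50 and 49 positions over the gene and end occupancies of 2.23, 3.31 and 2.51 on days 0, 1 and 2. Of 10 progenitor genes 1 was distal, Cd34, a surface marker of blood stem cells, with 41, 35 and 56 positions over the gene. Of 8 macrophage and 7 hepatocyte genes 0 were distal, so these regions do not bear on whether other liver cells were present.

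Around 486 annotated starts of distal transcripts, the density in the 150 bp before the start was 0.802 ± 0.060, 0.765 ± 0.058 and 0.740 ± 0.054 of the flanks on days 0, 1 and 2 (counting error). Around 19577 other starts it was 0.748 ± 0.0094, 0.822 ± 0.010 and 0.832 ± 0.0094. From 50 to 199 bp after the start, distal values were 1.23 ± 0.074, 1.38 ± 0.078 and 1.23 ± 0.070, and the others 1.23 ± 0.012, 1.47 ± 0.013 and 1.26 ± 0.012. Distal and other starts differed by less than 2 counting errors on each day in both windows. The depletion before the start and the excess after it were therefore present at distal starts too.

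The promoters of distal genes were searched on both strands for 4 short motifs. AGATAA, the letters bound by GATA factors, was in 6.38% of 486 distal promoters and in 9.57% of all 20063. CCACACCC, a CACCC box of erythroid promoters, was in 2.67% and 3.66%, TATAAA in 12.3% and 12.7%, and TTAGGG, the telomere repeat unit, in 10.3% and 10.5%. A match describes letters in the window and no binding.

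The distal regions also hold 27 miRNA hairpins that have a hairpin entry in the RefSeq table, with 194, 177 and 171 positions within 1 kb of them on days 0, 1 and 2, each position counted once. The miR-200 family, known for its part in epithelial cells, lies at the end of chromosome 4, and miR-29 members, known to target collagen genes, at the end of chromosome 1. Their mature forms are shown as they are the best-known small RNAs of these regions, from RefSeq with GRCm38.p6 coordinates and the seed (bases 2 to 8) in capitals.
miR-200b-3p: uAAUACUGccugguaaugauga
miR-429-3p: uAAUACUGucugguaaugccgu
miR-200a-3p: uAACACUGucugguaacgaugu
miR-29b-3p: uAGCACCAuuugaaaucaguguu
miR-29c-3p: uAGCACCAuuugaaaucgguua
miR-196a-5p: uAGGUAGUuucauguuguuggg

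miR-200b-3p and miR-429-3p share a seed, as do miR-29b-3p and miR-29c-3p, and the seed of miR-200a-3p differs from that of miR-200b-3p. Within 1 kb of the hairpins, Mir200b held 8, 9 and 6 positions on days 0, 1 and 2, Mir200a 10, 9 and 7, and Mir429 10, 8 and 7, in windows that overlap. Mir29b-2 held 6, 5 and 4, and Mir29c 6, 3 and 4. Mir196a-2, which lies within the Hoxc cluster, held 12, 6 and 7, fewer on both later days as in the cluster around it. Counts of this size do not separate the days.

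Pooled over the autosomes, single positions differed little from those elsewhere. A summit value of 10 or more was reached by 18.1%, 15.005% and 10.0% of distal positions on days 0, 1 and 2, and by 14.9%, 13.3% and 9.04% of the rest. The pooled median summit value was the same in distal and other positions on each day, and autosome by autosome the distal median was lower on 11, 14 and 6 of 19 and higher on 3, 4 and 3. The median fuzziness score, a measure of how loosely reads cluster at a centre, was 51.6, 54.6 and 51.3 in distal positions and 51.0, 54.5 and 51.1 in the rest. Autosome by autosome it was lower in the distal region on 12, 13 and 12 of 19, with mean differences of -0.83, -0.88 and -0.36. The higher share of tall positions was not general, since the mean summit value was above that of the rest on 6, 6 and 8 of 19 ends.

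Few distal positions recurred between days at the same place beyond what density gives. Of day 1 positions, 17.8% had a day 0 centre within 20 bp, and 14.1% did after shifts of 1000 bp in either direction, a difference of 3.77 percentage points. The rest of the autosomes had 16.99% and 13.1%, a difference of 3.93. Of day 2 positions, 14.8% had a day 0 centre, 3.32 points above the shifted share, beside 3.04 in the rest. A centre on all 3 days was found for 3.21% of distal day 0 positions and 2.22% after shifts, beside 3.14% and 2.08% in the rest. Each library had its own calls, so the shares depend on how many were made.

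The spacing of neighbouring centres could be read from the unfiltered distal lists on 2 of the 3 days. The maxima of the smoothed counts of distances lay 198 bp apart for day 1 and 193 bp for day 2, beside 193 and 186 bp in the rest, and on day 0 no regular series of maxima was found in the unfiltered distal list, beside 192 bp in the rest. Among positions of low fuzziness the distal spacing was 178 bp on day 0 and 188 bp on day 1, and none was found on day 2. The periodic part was small, with a fitted cosine of 0.80 ± 0.32%, 2.30 ± 0.37% and 0.95 ± 0.32% of the mean in distal regions on days 0, 1 and 2 (counting error). In the rest it was 0.44%, 1.40% and 0.80%. The fitted periods were 150, 189 and 186 bp in distal regions, beside 164, 191 and 176 bp in the rest. The 150 bp of day 0 is the shortest period tried, so that fit gives no spacing. The distal and other spacings were not tested against each other.

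Distal positions lay in genes in shares close to those elsewhere. The contrast in density between genes and the DNA between them was weaker in distal regions on each day. Of distal positions, 54.5%, 56.6% and 51.3% lay in protein-coding genes on days 0, 1 and 2, beside 54.7%, 56.9% and 50.7% of the rest, where genes cover 43.3% of the distal and 40.9% of the other length. The density in genes was 1.57, 1.71 and 1.38 times that between them in distal regions, beside 1.74, 1.91 and 1.49 in the rest. In both, the contrast between genes and the DNA between them was lowest on day 2.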

How the data were processed

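For each library the authors deposited a table of called nucleosome positions. The build mm10 and the tools Bowtie2 and bedtools are named, without their roles, per the submitters' processing notes. Versions, position caller and read totals were not given in the sources used here, so depth is known only as the number of listed positions, 3735952, 2999502 and 4474045 on days 0, 1 and 2. Per the file headers, each position has a summit value, which is a signal (smoothed coverage) that the authors had scaled. The deposited p-value columns for summit and fuzziness were not used, and the deposited fuzziness score has no stated unit. All positions are 140 bp wide and were called separately per library.

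Density is positions per kb. The pooled ratio is the distal number divided by the number expected from the density of the rest of the same chromosomes. Ratios of numbers at a gene or block were scaled by the list totals over the autosomes (0.804, 1.48 and 1.19 for day 1 over day 0, day 2 over day 1 and day 2 over day 0). Intervals are exact binomial, Clopper-Pearson or conditional, at 95%, and cover counting error only; none measures the spread between cultures. Genes are 20560 protein-coding autosomal genes of a RefSeq table of GRCm38.p6, those starting at 3 Mb or beyond. Distances between centres were smoothed with a Gaussian of SD 25 bp, and maxima from 300 to 1050 bp were used, at least 3 of them.

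No sequence of chromosome 18 is shown, and results at some withheld loci are not reported here. The members, the gene lists and the rules were chosen with earlier results of these data known. Named genes are the last named gene of each end, the 5 largest changes in each direction for day 2 over day 0, the 3 largest for each single step and the distal members of the lists; not all are printed. Long genes and blocks were added after their values were seen. Density ratio, shared share and spacing were tested on simulated data. Alternatives were other distal lengths, position filters, weights, backgrounds and gene windows. Analyses used Python 3.11.15 with numpy 2.4.6, pandas 2.3.3, scipy 1.17.1 and matplotlib 3.10.9.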

Additional observations from a re-analysis of the deposited data

Results flagged for a closer look

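Chromosome X was outside the comparisons of autosomes, and its own last 2 Mb held positions on each day. The lists had 913, 921 and 1363 positions there on days 0, 1 and 2. The density ratio, distal over rest of chromosome X, was 1.71, 2.54 and 1.30. No control sample exists, so these counts were noted only because they lie above the limit that a count of 0 allows. The rest of chromosome X was sparse, with 0.267, 0.181 and 0.525 positions per kb on the 3 days.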

How the results depend on the processing

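No paired analysis was possible because there was 1 library per day. The pooled ratio stayed above 1 in all but 2 settings, both on day 1. On days 0, 1 and 2 it was 1.498, 1.32 and 1.24 at summit values of 10 or more, 1.28, 1.20 and 1.14 weighted by summit value, 1.13, 1.13 and 1.11 in the last 1 Mb, 1.41, 1.40 and 1.23 in the last 5 Mb, 1.03, 0.963 and 1.00 against the same class of gene number, 1.13, 0.947 and 1.12 as the median autosome, and 1.30, 1.23 and 1.15 without the outermost 0.3 Mb, a setting chosen after seeing the data. Without the first 10 Mb of the rest it was 1.21 on day 0 and 1.17 on day 1. Leaving out each autosome gave 1.17 to 1.31, 1.10 to 1.25 and 1.09 to 1.17.

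The changes, in the order day 1 over day 0, day 2 over day 1 and day 2 over day 0, were 0.883, 0.935 and 0.826 at summit values of 10 or more, 1.00, 0.976 and 0.980 in the last 1 Mb (the first reversed), 0.988, 0.878 and 0.867 in the last 5 Mb, 0.939, 1.04 and 0.979 against the same class of gene number (the second reversed), 0.908, 1.05 and 0.951 as the median autosome (the second reversed), and 0.942, 0.940 and 0.885 without the outermost 0.3 Mb. Day 1 over day 0 and day 2 over day 0 were 0.937 and 0.892 weighted by summit value, and 0.966 and 0.925 without the first 10 Mb. Leaving out each autosome gave 0.926 to 0.971, 0.934 to 0.988 and 0.894 to 0.940. The cause of the reversals was not tested.

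Shares above the shifted share, for day 1 on day 0, day 2 on day 0 and day 2 on day 1, were 2.69, 2.29 and 2.25 points at 10 bp, 5.38, 4.54 and 4.51 at 40 bp, and 5.39, 7.03 and 7.66 at summit values of 10 or more. The spacing of the rest was 182 bp on day 1 among positions of low fuzziness, and 164 bp on day 0 by a cosine fit chosen after seeing the data; the distal list of day 2 gave no spacing under either filter, and several other filtered lists gave none.

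Counts of distal genes moved most. The genes measured numbered 378 with each position counted once, 423 in windows of 1000 bp, 437 over whole genes, 57 at summit values of 10 or more, and 440 (day 1 over day 0) or 462 (the other two) with no minimum, and percentages here are shares of all autosomal genes called at that setting. On day 1 over day 0, higher genes numbered 32 in windows of 1000 bp (10.4%), 15 over whole genes (3.45%), 18 at summit values of 10 or more (30.2%) and 28 counted once (8.22%); lower genes numbered 28 with no minimum (5.47%), 0 at summit values of 10 or more (0.424%) and 9 counted once (0.836%). On day 2 over day 1, higher genes numbered 11 in windows of 1000 bp (1.87%), 22 over whole genes (7.58%), 37 with no minimum (6.02%), 2 at summit values of 10 or more (1.96%) and 2 counted once (0.307%); lower genes numbered 31 over whole genes (4.05%) and 8 at summit values of 10 or more (14.9%). On day 2 over day 0, higher genes numbered 22 over whole genes (5.37%), 38 with no minimum (10.7%) and 4 counted once (1.42%); lower genes numbered 13 over whole genes (2.37%) and 0 at summit values of 10 or more (1.38%).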
